A study of Rattus norvegicus with 6 samples.

Results

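The 10 genes described here are feedback inhibitors of the ERK cascade and ETS transcription factors that FGF and PDGF signalling induces. They were taken by symbol from a table of 37991 genes, and all 10 were found (Spry1, Spry2, Spry4, Spred1, Dusp4, Dusp6, Il17rd, Etv1, Etv4 and Etv5). Each passed the filter on low counts, as did 17797 genes in all. The RNA came from cultures of the oligodendrocyte lineage, the cells that make myelin, prepared from SD rats. The precursor group (3 libraries) was grown in Raff medium and harvested before differentiation. The differentiated group (3 libraries) came from such precursors after the growth factors of the medium were changed. The titles number the libraries 1, 2 and 5 in each group, with day 0 and day 3 given for numbers 1 and 2. The labels name no agent, dose or genetic change, and do not say whether the libraries of a group came from separate cultures or animals, so p-values may measure technical spread alone.

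FGF and PDGF, the mitogens of oligodendrocyte precursors, bind receptor tyrosine kinases and activate Ras, Raf, MEK and ERK in turn. Active ERK relieves repression by Capicua (Cic) and raises transcription of the PEA3 family of ETS factors, and of proteins that then limit the same signal. Sprouty and Spred proteins act on Ras and Raf, DUSP phosphatases remove phosphate from ERK, and Sef (Il17rd) is a membrane protein that restrains FGF signalling and ERK. Transcript levels of these genes are widely used as a readout of ERK activity, which was not measured here.

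For the 3 Sprouty genes and the 3 ETS factors, every differentiated library was below every precursor library. This pattern was found in 13.8% of all tested genes. Spry1 fell 2.55-fold and Etv1 fell 1.56-fold. Spry2, Spry4, Etv4 and Etv5 did not pass the test without a replicate block, and the first 3 passed it with one. Over all tested genes, 15.7% were called lower and 14.9% higher with the block, against 3.21% and 5.65% without it. Dusp6, the member with the highest level per transcript length, differed by less than the spread between libraries. Il17rd was higher in each same-numbered pair and passed the test only with the block.

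Promoter sequence of the members was looked at for sites of the factors named above. RefSeq (build GRCr8) gave a window for 8 of the 10 members (2 for Spry2), which leaves Etv4 and Dusp4 named only. The 250 bases before the annotated start were searched on both strands for Capicua octamers (TGAATGAA, TGAATGGA, TCAATGAA and TCAATGGA), ETS sites (CCGGAAGT and AGGAAGT), a cyclic AMP element (TGACGTCA), an AP-1 site (TGANTCA), a GC box (GGGCGG) and the CArG box of serum response factor. The matches do not overlap each other except for some GC boxes. Shown are the windows of the 2 members that passed the test and of Dusp6, with matches in capitals. These capitals mark a GC box in Spry1 (61 to 66 bases before the start), a CArG box and 2 overlapping GC boxes in Etv1, and 2 Capicua octamers in Dusp6.
Spry1, chr2:122485097-122485346, plus strand: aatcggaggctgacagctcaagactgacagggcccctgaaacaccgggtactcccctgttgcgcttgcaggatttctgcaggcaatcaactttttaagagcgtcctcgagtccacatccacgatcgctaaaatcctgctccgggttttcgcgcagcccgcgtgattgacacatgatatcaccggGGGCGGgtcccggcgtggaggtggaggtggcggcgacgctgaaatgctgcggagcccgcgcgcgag
Etv1, chr6:61317179-61317428, plus strand: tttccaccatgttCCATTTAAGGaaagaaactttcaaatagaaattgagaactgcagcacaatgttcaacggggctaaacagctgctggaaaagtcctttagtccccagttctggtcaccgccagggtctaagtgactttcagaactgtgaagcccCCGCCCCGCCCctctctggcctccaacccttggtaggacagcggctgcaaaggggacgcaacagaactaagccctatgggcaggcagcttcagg
Dusp6, chr7:35979354-35979603, plus strand: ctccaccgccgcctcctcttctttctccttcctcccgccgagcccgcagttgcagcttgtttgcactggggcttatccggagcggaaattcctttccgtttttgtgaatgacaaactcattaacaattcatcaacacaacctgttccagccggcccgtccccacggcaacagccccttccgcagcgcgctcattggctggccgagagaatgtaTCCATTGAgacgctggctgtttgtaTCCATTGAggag

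A Capicua octamer was found in 2 of the 8 members, Dusp6 and Spry4, against 3.58% of 33469 RefSeq promoter windows of the same length. The octamers of Dusp6 both read TCCATTGA, the reverse complement of TCAATGGA, and lie 30 to 37 and 5 to 12 bases before the start. TCAATGGA occurred in 0.553% of all windows. In Spry4 the match is TCCATTCA, the reverse complement of TGAATGGA (1.11% of all windows), 191 to 198 bases before the start. It is shown with 11 bases on each side because Spry4 was called with the replicate block and Dusp6 was not. The capitals hold a GC box (CCGCCC) directly followed by the octamer.
Spry4, chr18:30702726-30702755, minus strand: cgccgCCGCCCTCCATTCAttacaaaggaa
Of the others, a CArG box was found in Etv1 alone (1.5% of all windows), and GC boxes in 7 members (30.5% of all windows). No member window held the letters of either ETS site, the cyclic AMP element or the AP-1 site, which occurred in 3.1%, 7.08%, 1.59% and 6.34% of all windows. A match is a description of these letters and not evidence that a factor binds there.

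Library totals ran from 55522101 to 79898629 counts, so that 1 CPM (counts relative to a library total that was adjusted by edgeR's TMM method) rested on 54.9 to 72 reads. Olig2 and Sox10 were expressed in all 6 libraries, and Mbp, which encodes myelin basic protein, rose 16.8-fold. Summed over 4 markers of oligodendrocyte precursors, the level ran from 698 to 1290 CPM in precursor libraries. In differentiated libraries that sum ran from 797 to 1040 CPM, and 0 of the 4 were called. The markers did not move alike. Gpr17 was higher in every differentiated library than in any precursor library (edgeR adjusted p = 0.0985, and 0.00603 with the replicate block). With the block Cspg4 was also called higher and Ptprz1 lower (edgeR adjusted p = 0.0479 and 0.0309), and Pdgfra was not called (0.24). Markers of other cells were also present. The summed level of 9 astrocyte markers ran from 4340 to 6140 CPM in precursors and from 7900 to 8190 CPM in differentiated libraries, and 4 of the 9 rose. Sums of microglial and of fibroblast and pericyte markers were highest in the replicate 1 libraries, at 795 and 301 CPM in precursor 1 against 303 to 312 and 75.5 to 86.1 CPM in the other precursors. The summed level of 4 Schwann cell markers ran from 6.65 to 14.9 CPM in precursors and from 38.5 to 92.1 CPM in differentiated libraries, without overlap. Of the 3 tested, 1 (Pmp2) rose, by 6.76-fold. Of 9 neuronal markers 1 fell. The part of these cells in the results below was not tested. A lower level in such cultures can come from fewer cells of a type or from less RNA per cell, which cannot be told apart.

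Of the 10 members, 2 were lower and 0 higher at an edgeR quasi-likelihood adjusted p under 0.05, where 3.21% of all 17797 tested genes were called lower and 5.65% higher. At an unadjusted edgeR p under 0.05, 5 members were lower and 0 higher, beside 10.7% and 12.4% of all tested genes. With DESeq2, 5 were lower and 0 higher at an adjusted p under 0.05, beside 7.05% and 8.56% of all genes. The median log2 fold change of the members was -0.375 (8 negative, 2 positive), beside -0.0376 over all tested genes. With the replicate number as a block in the edgeR fit, 5 members were lower and 1 higher, where 15.7% and 14.9% of all genes were called in these directions. Without both replicate 1 libraries, 2 were lower and 0 higher, beside 8.11% and 8.48%. In 6 of the 10 members the groups did not overlap and the differentiated libraries were lower, a pattern found in 13.8% of all tested genes, and in 0 they did not overlap and were higher (16.5% of all). Without precursor 2, precursor 5, differentiated 2 or differentiated 5, 1 member was called. Each of these fits also called fewer genes over all tested genes than the fit of all libraries, which gave 1005 higher and 571 lower. The ranges are given in the closing section.

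**Figure D1:**
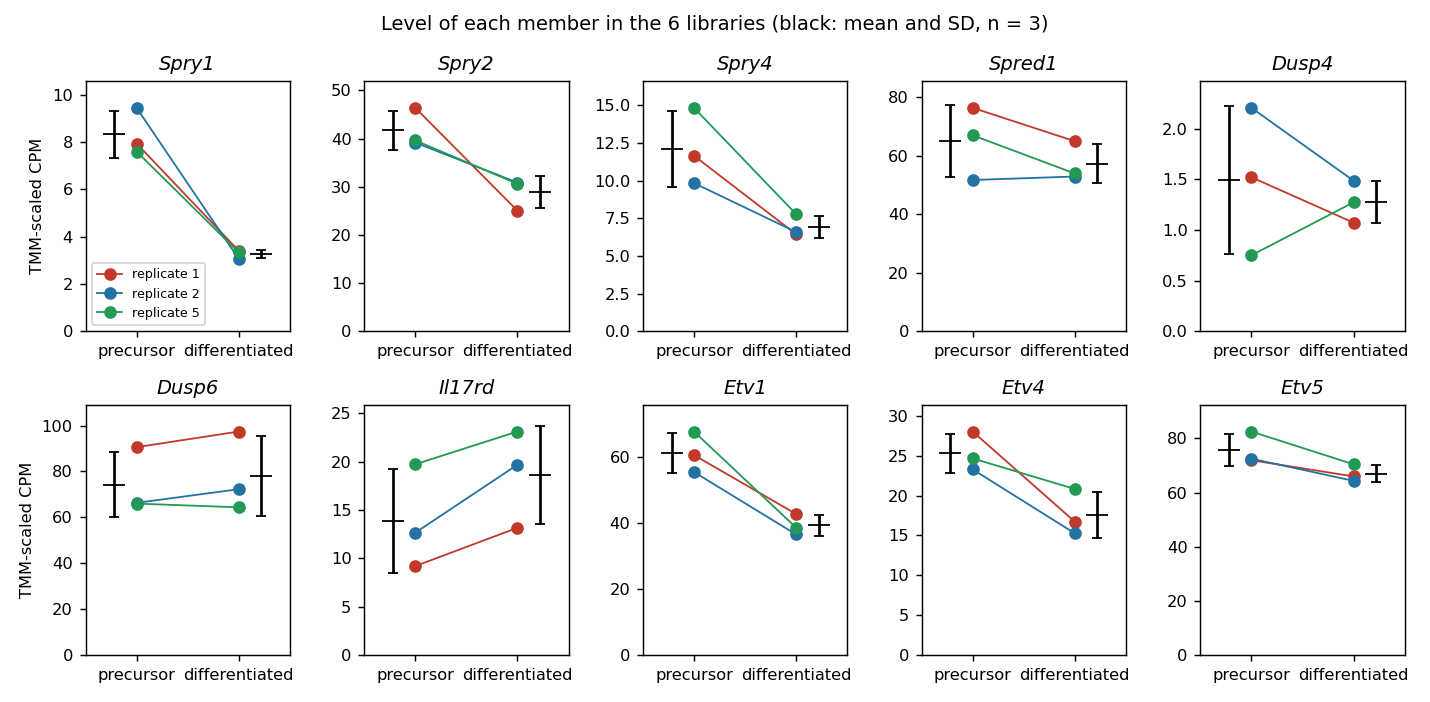
TMM-scaled CPM of each member in the 6 libraries, with lines joining libraries of the same replicate number and black bars for the mean and SD (n = 3). The 3 Sprouty genes and the 3 ETS factors are lower in every differentiated library than in any precursor library, while Dusp6, Spred1, Dusp4 and Il17rd overlap. Such a lower pattern is found in 13.8% of all tested genes.

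The Sprouty genes encode membrane-associated inhibitors of receptor tyrosine kinase signalling. Spry1 (294981) was at 7.94, 9.45 and 7.6 CPM in precursors 1, 2 and 5 and at 3.4, 3.05 and 3.33 CPM in differentiated 1, 2 and 5. All precursors were thus well above all differentiated libraries, which lay close together. The means were 8.33 ± 0.984 CPM and 3.26 ± 0.184 CPM (SD, n = 3), a log2 fold change of -1.35 (SE 0.19, edgeR adjusted p = 0.00643). It was the largest fold change among the members and the call held in each of the 6 fits that left out 1 library (edgeR adjusted p 0.0123 to 0.0457).

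Spry4 (291610) was at 11.7, 9.84 and 14.8 CPM in precursors 1, 2 and 5 and at 6.44, 6.59 and 7.77 CPM in differentiated 1, 2 and 5. The groups did not overlap, and precursor 5 was the highest. The log2 fold change was -0.81 (SE 0.21, edgeR adjusted p = 0.0556, and 0.00612 with the replicate block). Spry2 (306141) was at 46.4, 39.2 and 39.6 CPM in precursors and 25.0, 30.9 and 30.6 CPM in differentiated libraries. Replicate 1 held both the highest precursor and the lowest differentiated value, and the groups did not overlap. Its log2 fold change was -0.53 (SE 0.14, edgeR adjusted p = 0.0582, and 0.0204 with the block). The pair of replicate 1 differed by -0.89 on the log2 scale and those of replicates 2 and 5 by -0.34 and -0.37. Without both replicate 1 libraries the log2 fold change of Spry2 was -0.35 (edgeR adjusted p = 0.0834).

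On the TPM scale, which divides by transcript length and so allows genes to be compared, Spry2 was the most abundant Sprouty transcript in each library. The ratio of Spry2 to Spry1 in TPM was 2.62, 1.86 and 2.34 in precursors 1, 2 and 5, and 3.36, 4.55 and 4.17 in differentiated 1, 2 and 5. All differentiated ratios were thus above all precursor ratios (two-sided exact permutation p = 0.1, the smallest that 3 against 3 allows, and 0.2 after Benjamini-Hochberg adjustment over 6 ratios). The ratio of Spry2 to Spry4 ran from 5.55 to 8.23 in precursors and from 8.19 to 9.73 in differentiated libraries, which overlap (exact permutation p = 0.5, adjusted 0.75).

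Spred1 (296072) encodes a Sprouty-related protein that recruits neurofibromin to the membrane and so inhibits Ras. It was at 76.3, 51.6 and 66.9 CPM in precursors 1, 2 and 5 and at 64.9, 52.8 and 53.9 CPM in differentiated 1, 2 and 5. The highest value of each group was in replicate 1, and the groups overlapped. Its log2 fold change was -0.18 with a 95% interval from -0.58 to 0.21 (edgeR adjusted p = 0.584). The estimates for Spry1, Spry4 and Etv1 lie below this interval. The intervals of Spry4 (-1.29 to -0.32) and Etv1 (-0.93 to -0.35) overlap it, and that of Spry1 (-1.81 to -0.90) does not. A difference between these genes was not tested.

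The ETS factors of the PEA3 family are transcription factors that carry the response to FGF into gene expression. Etv1 (362733) was at 60.5, 55.4 and 67.6 CPM in precursors 1, 2 and 5 and at 42.7, 36.5 and 38.5 CPM in differentiated 1, 2 and 5. The groups were separated by more than the range within the differentiated group. The means were 61.2 ± 6.16 CPM and 39.2 ± 3.16 CPM (SD, n = 3), and the log2 fold change was -0.64 (SE 0.12, edgeR adjusted p = 0.0218). Removal of precursor 2, precursor 5, differentiated 2 or differentiated 5 ended the call, with edgeR adjusted p of 0.0539, 0.0694, 0.117 and 0.0984. It was also lost with limma on log2(TPM + 1), at an adjusted p of 0.0543.

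Etv4 (360635) was at 28.0, 23.3 and 24.7 CPM in precursors 1, 2 and 5 and at 16.7, 15.2 and 20.8 CPM in differentiated 1, 2 and 5. The groups did not overlap, and the pair of replicate 5 differed least (-0.24 on the log2 scale, against -0.75 and -0.61). The log2 fold change was -0.53 (SE 0.17, edgeR adjusted p = 0.105, and 0.0187 with the replicate block). Etv5 (303828) was at 71.9, 72.5 and 82.5 CPM in precursors and 66.0, 64.3 and 70.4 CPM in differentiated libraries. Its groups were apart by less than the range within either, at a log2 fold change of -0.18 with a 95% interval from -0.43 to 0.08 (edgeR adjusted p = 0.387, and 0.087 with the block). The estimates for Etv1 and Etv4 lie outside this interval, but their own intervals (-0.93 to -0.35 and -0.91 to -0.14) overlap it.

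Within a library the ETS factors kept the order Etv5, Etv4, Etv1 per transcript length. The ratio of Etv5 to Etv1 in TPM ran from 2.1 to 2.34 in precursors and from 2.77 to 3.28 in differentiated libraries, without overlap. The ratio of Etv5 to Etv4 ran from 1.54 to 2.03 and from 2.04 to 2.56, also without overlap, though the nearest values almost met. Both had an exact permutation p of 0.1 (adjusted 0.2). The ratio of Etv4 to Etv1 overlapped, at 1.07 to 1.36 and 1.18 to 1.6 (exact permutation p = 0.7, adjusted 0.84).

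The DUSP genes encode phosphatases of MAP kinases. Dusp6 (116663), specific for cytoplasmic ERK, was at 90.6, 66.3 and 66.0 CPM in precursors 1, 2 and 5 and at 97.4, 72.3 and 64.4 CPM in differentiated 1, 2 and 5. Replicate 1 was the highest library of each group, and the groups overlapped fully. The log2 fold change was 0.07 with a 95% interval from -0.39 to 0.54 (edgeR adjusted p = 0.879), and it was negative with library size as the scaling (-0.08) and on the TPM scale (-0.19). The estimates for Spry1, Spry2, Spry4, Etv1 and Etv4 lie below that interval, but of their own intervals only that of Spry1 does not overlap it. A difference between Dusp6 and these genes was not tested. Dusp4 (60587), a nuclear phosphatase, rested on 54 to 158 reads per library. Its levels were 1.52, 2.21 and 0.75 CPM in precursors and 1.07, 1.49 and 1.27 CPM in differentiated libraries, with the lowest and the highest value both among precursors. Its log2 fold change of -0.22 had a 95% interval from -1.26 to 0.82 (edgeR adjusted p = 0.819, 0.17 in log2 fold change without precursor 2), so that changes of 2-fold in the lower direction were not excluded.

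Il17rd (498576) was at 9.19, 12.6 and 19.7 CPM in precursors 1, 2 and 5 and at 13.2, 19.7 and 23.1 CPM in differentiated 1, 2 and 5. In both groups replicate 1 was lowest and replicate 5 highest, so the groups overlapped although each pair was higher after differentiation (0.52, 0.64 and 0.23 on the log2 scale). The log2 fold change was 0.43 (SE 0.32, edgeR adjusted p = 0.49), and with the replicate block 0.46 (edgeR adjusted p = 0.0283). It was the 1 member called higher in any fit.

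**Figure D2:**
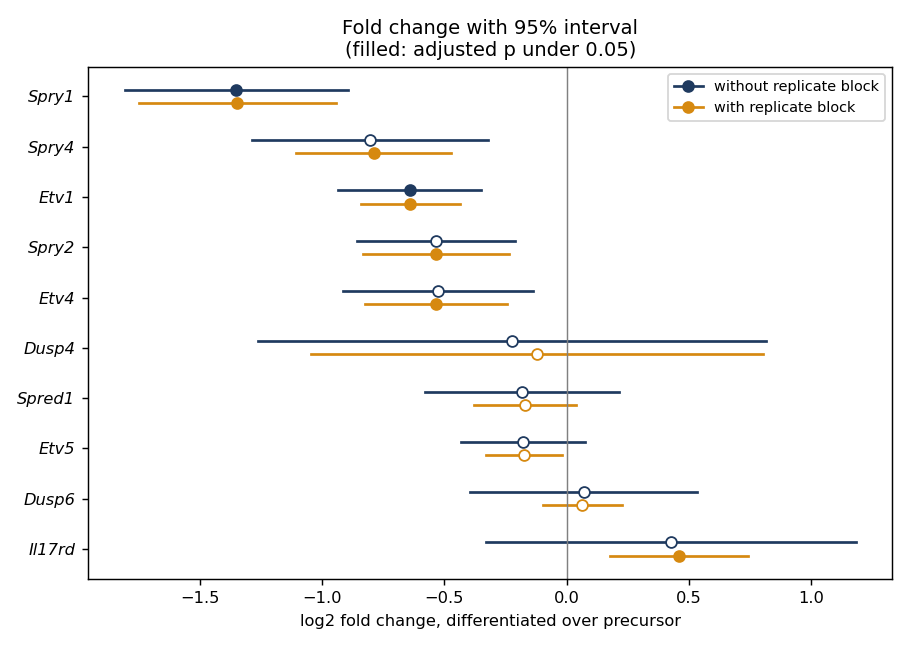
Log2 fold change (differentiated over precursor) of each member with its 95% interval, in the edgeR fit without and with the replicate block, with filled points for an adjusted p under 0.05. Spry1 and Etv1 are called in both fits, at -1.35 and -0.64 without the block, while Spry4, Spry2, Etv4 and Il17rd are called with the block only. Of all tested genes, 3.21% are called lower and 5.65% higher without the block, and 15.7% and 14.9% with it.

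Per transcript length, Dusp6 was the highest member and Dusp4 the lowest. In precursors the mean TPM was 30.6 ± 2.88 for Dusp6, 22.7 ± 5.75 for Etv5, 20.9 ± 2.42 for Spry2, 12.4 ± 1.67 for Etv4, 10.3 ± 2.67 for Etv1, 9.93 ± 2.12 for Spred1 and 9.33 ± 1.63 for Spry1 (SD, n = 3). Below these came Spry4 at 3.0 ± 1.09, Il17rd at 2.2 ± 1.3 and Dusp4 at 1.4 ± 0.644 TPM. The only gaps between neighbours in this order whose values did not overlap lay below Spry2 and below Spry1. In differentiated libraries Spry1, at 3.04 ± 0.356 TPM, was below Etv1 (5.41 ± 0.411 TPM) with no overlap, whereas in precursors these genes overlapped. Dusp6 stood above Etv5 there with no overlap, at 26.7 ± 2.43 and 16.6 ± 2.57 TPM. Neighbours were also apart below Spry2 (12.3 ± 2.71 TPM), below Etv4 (7.29 ± 1.87 TPM) and below Etv1. A small noncoding RNA, Rn7sl1, held 5.93% to 12.5% of the counts of a library, and its part in the TPM values was not tested. The median log2 fold change of all genes was -0.172 on the log2(TPM + 1) scale.

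**Figure D3:**
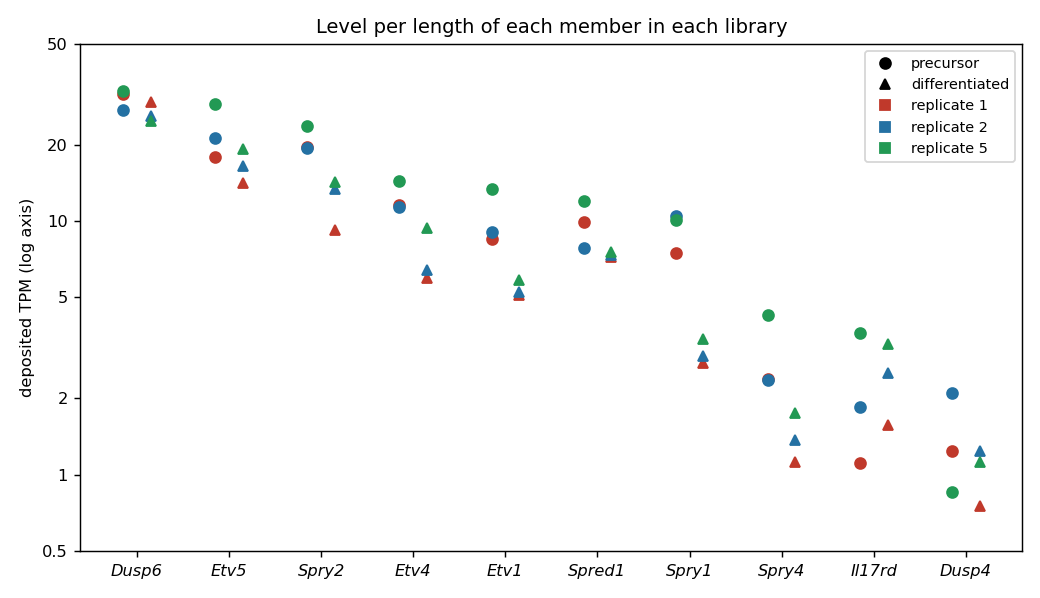
Deposited TPM of each member in each library on a log axis, ordered by the precursor mean, with circles for precursors, triangles for differentiated libraries and colours for the replicate number. Dusp6 lies between 24.8 and 32.7 TPM in all libraries, while Spry1 drops from at least 7.46 TPM in precursors to at most 3.43 TPM.

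Other genes of the pathway were read from lists of receptors, cascade components, further negative regulators, further ERK output genes and other ETS factors. Of 12 receptors tested, 4 rose and 0 fell (median log2 fold change -0.08), and with the replicate block 5 rose and 2 fell. Over all tested genes 5.65% rose and 3.21% fell, and with the block 14.9% rose and 15.7% fell. Fgfr2 (25022), an FGF receptor, rose from 49.6 ± 5.7 to 127 ± 16.6 CPM (SD, n = 3, log2 fold change 1.35, edgeR adjusted p = 0.00203). Erbb3 (29496), a neuregulin receptor, rose from 13.8 to 51.9 CPM (edgeR adjusted p = 0.00382). Fgfr3 (84489), which the astrocyte list also holds, rose from 45.0 to 83.8 CPM (edgeR adjusted p = 0.00997, and 0.0561 without precursor 2). Pdgfrb (24629), which the fibroblast and pericyte list also holds, rose from 5.24 to 10.8 CPM (edgeR adjusted p = 0.0265). That call ended on removal of any 1 library except precursor 1, with values up to 0.115. The other detected markers of the fibroblast and pericyte list (Col1a1, Col1a2, Col3a1, Dcn and Lum) were lower in each same-numbered pair. None of these was called without the block, and with it their edgeR adjusted p ran from 0.000562 to 0.0208. Fgfr1 (79114) had 129 and 119 CPM (edgeR adjusted p = 0.579). Pdgfra (25267), the PDGF receptor of precursors, had 427 CPM in precursors and 365 CPM in differentiated libraries, with an edgeR adjusted p of 0.45 (0.0348 when both replicate 1 libraries were left out).

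Among 22 cascade components, 4 rose and 0 fell (median log2 fold change 0.07), beside 5.65% and 3.21% of all tested genes. With the block 7 rose and 2 fell, beside 14.9% and 15.7%. Rps6ka2 (117269), a kinase activated by ERK, rose from 18.0 to 55.1 CPM (edgeR adjusted p = 0.000785), and Ptpn11 (25622), the phosphatase SHP2, from 241 to 514 CPM (edgeR adjusted p = 0.00377). The call of Ptpn11 held in each of the 6 fits that left out 1 library and was lost with limma on log2(TPM + 1) and log2(TPM + 0.1), at adjusted p of 0.0794 and 0.0713. Mapk3 (50689), which encodes ERK1, rose from 60.6 to 91.0 CPM (edgeR adjusted p = 0.0111, and up to 0.0637 without precursor 2, differentiated 2 or differentiated 5). Gab1 (361388), an adaptor of receptor tyrosine kinases, rose from 70.0 to 142 CPM (edgeR adjusted p = 0.0461). That call was lost in 5 of the 6 fits that left out 1 library (all but the one without differentiated 1).

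Of 22 further negative regulators, 2 rose and 2 fell (median log2 fold change -0.09), beside 5.65% and 3.21% of all tested genes. With the block 4 rose and 7 fell, beside 14.9% and 15.7%. Dusp10 (63995), a phosphatase directed mainly at p38 and JNK, rose from 10.7 to 31.4 CPM (edgeR adjusted p = 0.00216), and Dusp7 (300980), an ERK phosphatase, from 4.89 to 12.6 CPM (edgeR adjusted p = 0.031). Errfi1 (313729), a feedback inhibitor of EGF receptors, fell from 20.6 to 12.2 CPM (edgeR adjusted p = 0.022), and Rasa2 (25597), a Ras GTPase-activating protein, from 17.8 to 10.7 CPM (edgeR adjusted p = 0.0453). Of these 4, Dusp10 was called in each of the 6 fits that left out 1 library, and Dusp7, Errfi1 and Rasa2 in 1, 2 and 1 of them. The libraries whose removal ended all 3 calls were precursor 2, precursor 5, differentiated 2 and differentiated 5, and precursor 1 for Dusp7 and Rasa2.

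Of 19 further ERK output genes, 3 fell and 1 rose, with 15 of 19 log2 fold changes negative and a median of -0.823. Over all tested genes 3.21% fell and 5.65% rose. The list also counts Cic, named above as the repressor that ERK relieves, and Atxn1. Their log2 fold changes were 0.31 and 0.32 (edgeR adjusted p = 0.676 and 0.418). With the replicate block 11 fell and 1 rose, beside 15.7% and 14.9% of all tested genes. Without both replicate 1 libraries 9 fell and 1 rose, beside 8.11% and 8.48%. In 10 the groups did not overlap and the differentiated libraries were lower, beside 13.8% of all tested genes. Shc4 (679845), an adaptor, fell from 10.6 ± 1.57 to 3.16 ± 0.443 CPM (SD, n = 3, edgeR adjusted p = 0.00352). Lif (60584), a cytokine, fell from 1.82 to 0.21 CPM (edgeR adjusted p = 0.0249, up to 0.0964 without precursor 2, precursor 5, differentiated 1 or differentiated 2). Hmga2 (84017) had 15, 34 and 24 reads in precursors 1, 2 and 5 and 0 in each differentiated library, at least 22.2-fold lower against 3 counts over the group. Its call (edgeR adjusted p = 0.0419) was lost in each fit that left out 1 library, at 0.0688 to 0.169, and with the replicate block (0.0588). The member of this list that rose was Spsb1 (313722), from 15.2 to 45.1 CPM (edgeR adjusted p = 0.00133). Ccnd1 (58919), cyclin D1, chosen for naming after its values were seen, was at 501, 352 and 326 CPM in precursors 1, 2 and 5 and at 299.9, 218 and 206 CPM in differentiated 1, 2 and 5. Every differentiated library was below every precursor library (log2 fold change -0.70, edgeR adjusted p = 0.0939, and 0.000357 with the block).

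Of 15 other ETS factors tested, 1 rose and 0 fell (median log2 fold change -0.16), beside 5.65% and 3.21% of all tested genes. The 1 was Erf (292721), an ETS repressor that ERK exports from the nucleus, which rose from 19.4 to 34.7 CPM (edgeR adjusted p = 0.0234). Removal of precursor 2, precursor 5, differentiated 2 or differentiated 5 ended that call, with values up to 0.102. With the replicate block 1 rose and 2 fell, beside 14.9% and 15.7% of all tested genes.

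**Figure D4:**
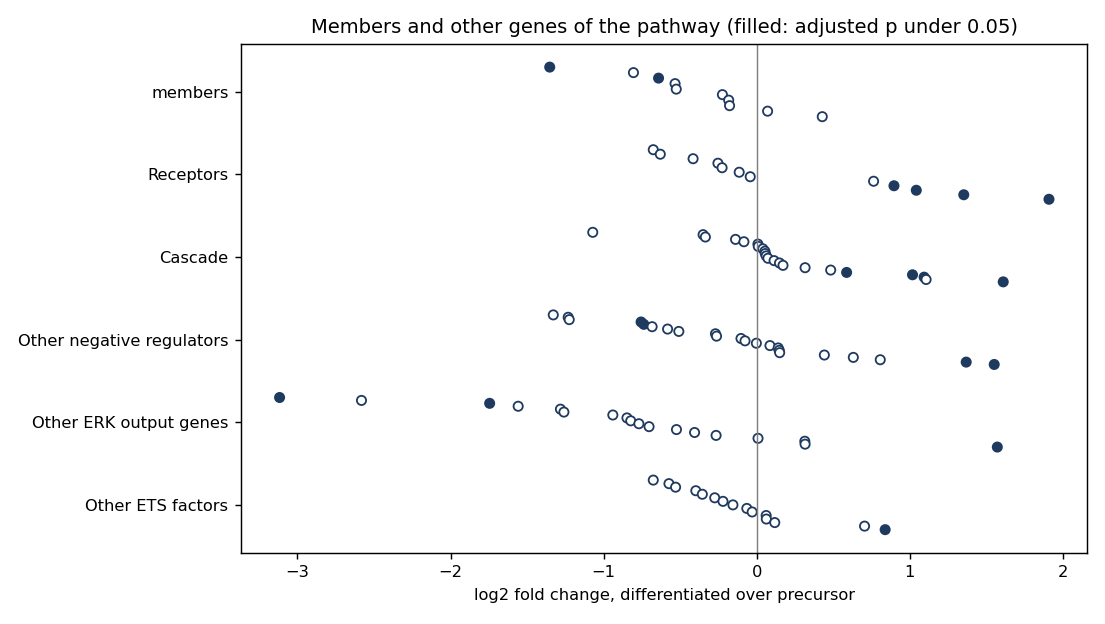
Log2 fold change (differentiated over precursor) of the members and of the 5 pathway lists, each point 1 tested gene, with filled points for an edgeR adjusted p under 0.05 and Hmga2 left out because it had 0 reads in all differentiated libraries. The further ERK output genes (a list that also holds Cic and Atxn1) and the members lie mostly left of 0. The called receptors and cascade components lie right of it.

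The profile of the members over the libraries was summarised as the mean of their centred log2 CPM, which was 0.22, 0.155 and 0.189 in precursors 1, 2 and 5 and -0.224, -0.214 and -0.126 in differentiated 1, 2 and 5. The 5 other genes most like it, by Pearson's r over the 6 libraries, were Fbn2 (0.995), Usp28 (0.993), Nup160 (0.993), Sema3a (0.993) and Frmpd1 (0.991). The 6 points form 2 groups of libraries, so these values describe mainly a shared difference between groups. The genes were picked by that likeness in the same libraries, so their p-values below are descriptions and no separate test of a difference. Fbn2 (689008), a fibrillin gene, fell from 41.8 to 12.2 CPM (edgeR adjusted p = 0.00173) and Sema3a (29751), a guidance cue, from 63.3 to 15.6 CPM (edgeR adjusted p = 0.000827). Usp28 (315639) fell from 22.1 to 11.7 CPM and Frmpd1 (313244) from 40.0 to 20.5 CPM (edgeR adjusted p = 0.00673 and 0.00919, and 0.0518 and 0.0611 without differentiated 2). Nup160 (311182) had 38.8 and 31.2 CPM and missed the threshold (edgeR adjusted p = 0.123).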

How the data were processed

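RNA of cultured rat cells was sequenced in 3 precursor and 3 differentiated libraries made with a stranded total RNA kit, per the labels' protocols. The submitters' processing notes name bcl2fastq 2.20.0, Trimmomatic 0.38, HISAT2 2.1.0, StringTie 2.1.3b and the build GRCh38, a human assembly, whereas the gene identifiers are those of rat. Which rat build, annotation and strand setting were used is not given in the sources used here. Whether reads of overlapping antisense genes were separated is therefore unknown. The authors deposited whole-number read counts per gene, FPKM (not used here) and TPM for each library. Groups came from the sample labels.

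Differentiated was compared with precursor in edgeR 4.0.16 (quasi-likelihood test, TMM scaling, filterByExpr, robust) under R 4.3.3, with Benjamini-Hochberg adjustment over the 17797 tested genes and a call under 0.05. The SE is the log2 fold change divided by the square root of F, and 95% intervals use the moderated degrees of freedom. The code was tested on simulated counts. Alternatives were other scalings and filters, DESeq2 1.42.0, a replicate block, omission of libraries, and limma 3.58.1 on log2(TPM + 1) and log2(TPM + 0.1). Same-numbered libraries deviated together from their group means (correlations 0.421, 0.197 and 0.272 for numbers 1, 2 and 5). Differently numbered libraries gave correlations from -0.308 to 0.105, with the positive ones between numbers 2 and 5. The replicate block therefore treats same-numbered libraries as pairs, although no label says that they are. That choice rests on the same data as the calls made with it. Named beyond the members are up to 4 called genes of each pathway list, 4 receptors whatever their values, the markers Mbp, Olig2 and Sox10, the highest marker of a list of other cells, and the 5 most similar genes. Ccnd1, Rn7sl1, Cic, Atxn1, Gpr17, Cspg4, Ptprz1, Col1a1, Col1a2, Col3a1, Dcn and Lum were named after their values were seen. Ksr1 has 2 entries, of which the first was used. Members, lists and tests were chosen with earlier results of these data known. Promoters came from RefSeq (GRCr8), matched by gene identifier.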

Additional observations from a re-analysis of the deposited data

How the results depend on the processing

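Spry1 kept its direction and its call in all 15 alternatives (log2 fold change -1.58 to -1.25), and Etv1 its direction in 15 and its call in 10. Leaving out 1 library at a time gave 484 to 947 genes higher and 148 to 561 lower, 0 members higher and 1 to 2 lower, and 6 to 12 pathway genes higher and 1 to 8 lower. These fits hold fewer libraries. In them the log2 fold change of Dusp4 ran from -0.55 to 0.17 and that of Dusp6 from -0.11 to 0.25. With the replicate block (the pairing of same-numbered libraries), 2643 genes were higher and 2797 lower, 1 member higher and 5 lower, and 18 pathway genes higher and 24 lower. Without both replicate 1 libraries, an alternative chosen after seeing the data, 1529 genes were higher and 1462 lower, and 18 pathway genes lower. DESeq2 gave 1521 genes higher and 1252 lower, 5 members lower and 13 pathway genes lower. With library size alone, 1006 genes were lower, 3 members and 10 pathway genes lower, and Dusp6 was at -0.0792. With limma on log2(TPM + 1), 487 genes were higher and 1000 lower, 1 member was lower, 5 pathway genes were higher and 10 lower, and Dusp6 was at -0.19. On log2(TPM + 0.1) the values were 509 and 1090 genes, 5 and 10 pathway genes, and -0.19 for Dusp6. Without the low-count filter 3 pathway genes were lower, with more genes tested (534 of 25386 lower). The stricter filter of 1 CPM in 3 libraries gave 3 members lower, beside 643 of 14518 tested genes. The member added by that filter was Spry4 (edgeR adjusted p = 0.0486, and 0.0556 with the main filter). The other causes were not tested. Among calls, the share of higher genes was 63.8%, and 40.3% with library size alone, 48.6% with the block, 75.9% without precursor 2, 76.6% without differentiated 2, 74.6% without differentiated 5 and 32.8% on log2(TPM + 1). Over all tested genes the median log2 fold change was -0.0376, and -0.188 with library size alone. On both TPM scales the calls of Fgfr3, Pdgfrb, Ptpn11, Mapk3, Gab1, Dusp7 and Erf were lost, and with library size alone those of Gab1, Dusp7 and Erf. Dusp4 rested on 54 to 158 reads a library.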
